A study of Mus musculus with 15 samples.

Results

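The 10 genes described here encode the MHC class II antigen presentation machinery and its master regulator: Ciita, H2-Aa, H2-Ab1, H2-Eb1, Cd74, H2-DMa, H2-DMb1, H2-DMb2, H2-Oa and H2-Ob. They were chosen by gene name from the 38315 genes of a bulk RNA sequencing table, with no measured value in the rule. The table covers 15 mouse bone marrow libraries of total RNA. Of these, 7 came from marrow with acute myeloid leukaemia (AML) of transgenic mice with the genotype NUP98-NSD1/FLT3-ITD, 4 from wild-type whole marrow and 4 from wild-type lineage-negative marrow, which has been depleted of cells carrying mature blood cell antigens. NUP98-NSD1 fuses the gene of a nuclear pore protein to that of a methyltransferase for histone H3. FLT3-ITD is a mutant form of a receptor tyrosine kinase in which part of the coding sequence is repeated. No treatment was given. The mouse strain, the ages, the promoters that drive the alleles and the antibodies of the depletion are not given in the sources used here, and neither is the share of leukaemic cells in each AML marrow. The labels number the samples but do not say that each came from its own animal, so the p-values measure the spread between these samples.

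MHC class II molecules are heterodimers of an alpha and a beta chain that carry peptides from endosomes to the cell surface, where CD4+ T cells read them. Cd74, the invariant chain, holds the groove shut until proteases in the endosome leave a short fragment, which the chaperone H2-DM removes so that peptide can bind. H2-O, which is made mainly in B cells, inhibits H2-DM. Ciita does not bind DNA itself: it joins a complex of RFX, CREB and NF-Y proteins that sits on a module of short motifs (the S, X and Y boxes) in front of class II genes. In mouse marrow these genes are known mainly from B cells, dendritic cells and macrophages, and NUP98-NSD1 leukaemias are myeloid.

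Of the members, 8 lie on chromosome 17 within 224 kb (34311314 to 34535648), a span in which the table lists 18 genes. The table names no genome build, so positions of genes are printed as the table gives them. H2-Oa (34311314 to 34314208), H2-DMa (34338515 to 34358075), H2-DMb2 (34362281 to 34370529), H2-DMb1 (34372046 to 34379204), H2-Ob (34457877 to 34473388), H2-Ab1 (34476663 to 34488393) and H2-Eb1 (34524841 to 34535648) are on the plus strand, and H2-Aa (34501718 to 34506797) is on the minus strand. Ciita is on chromosome 16 (10297923 to 10346282), and the position of Cd74 is given with its values.

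The promoters of the members are shown because several share the letters on which the Ciita complex is known to assemble. RefSeq promoter sequences of the build GRCm38.p6, from 250 bases before to 50 bases after the gene start, were found for 7 of the 10 members (8 promoters). The promoters were searched on both strands for 2 short motifs, chosen after these sequences had been seen: AACNNATGA, a core of the X box, and GATTGG, the inverted CCAAT letters of the Y box. The motifs share no overlapping letters in the windows shown. AACNNATGA was in 935 of 32851 promoters (2.846%) and GATTGG in 5292 (16.11%). Both motifs in this order on the same strand, with a gap of 10 to 40 bases, were found in 11 promoters of all genes (0.03348%), and 4 of these 11 belonged to H2-Eb1, H2-DMb1, H2-DMb2 and H2-Ob. The 54-base windows that end with the GATTGG letters are printed 5′ to 3′ on the strand of the gene, with the motifs in capitals:
H2-Aa, chr17:34287867-34287920, minus strand: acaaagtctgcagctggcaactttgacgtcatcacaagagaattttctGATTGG
H2-Eb1, chr17:34305759-34305812, plus strand: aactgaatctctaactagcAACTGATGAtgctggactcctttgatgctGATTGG
H2-DMb2, chr17:34145110-34145163, plus strand: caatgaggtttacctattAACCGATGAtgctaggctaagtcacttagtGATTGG
H2-Ob, chr17:34238799-34238852, plus strand: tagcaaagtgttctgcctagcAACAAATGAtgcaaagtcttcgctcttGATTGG
The gap between the motifs was 20 bases in H2-Eb1, 21 in H2-DMb2 and 18 in H2-Ob, so the spacing varied by 3 bases. The windows of H2-DMb1 and H2-DMb2, which are paralogous genes, had the same base at 49 of 54 positions. H2-Aa carries the GATTGG letters alone by these spellings, as does H2-Oa. A promoter of H2-DMa also carries GATTGG alone, at position −199 from the gene start, and its other promoter carries neither motif. A match is a description of letters and not a measured binding site.

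All 10 members passed the filter on low values (a normalized count of at least 10 in at least 4 samples), as did 18941 genes in all. Values are normalized counts, the authors' read counts per gene divided by a size factor for each library. Estimated depth was 20.3 to 35.1 M reads (M, mega) in AML, 11.4 to 17.2 M in whole marrow and 20.3 to 28.1 M in lineage-negative marrow, and a count of 3 reads was worth between 1.96 and 4.09 normalized counts. The AML libraries numbered 5 and 6 had fewer genes at 0 (29.1% and 23.6%) than the other AML libraries (38.2% to 41.4%), and whole marrow had the fewest (7.12% to 15.7%). AML library 3 stood apart for most members, and values without it are given where it decides a call. The summed level of 10 erythroid markers was 807468 to 1990500 in whole marrow and 18007 to 57200 in lineage-negative marrow, where 10 stem and progenitor markers summed to 50041 to 57499 against 5182 to 9835 in whole marrow. In AML marrow, 10 monocyte markers summed to 97427 to 217967, against 23453 to 46984 in whole marrow.

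Over all genes tested, the median log2 difference from whole marrow was 0.67 in AML and 0.59 in lineage-negative marrow, so the deposited scaling places whole marrow lower for most genes. With TMM scaling (trimmed mean of M values) these medians were −0.01 and −0.09. For AML against lineage-negative marrow the median was 0.02 with the deposited scaling and 0.03 with TMM. Differences involving whole marrow are therefore given with both scalings where the call or the direction depends on them. A gene was called when the limma adjusted p (Benjamini-Hochberg over 18941 genes) was under 0.05 and the log2 difference at least 1 in size.

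The class II machinery was far more abundant in AML marrow than in either normal population. Together the 10 genes took 0.466% ± 0.455 (SD, n = 7) of all normalized counts in AML libraries (range 0.165% to 1.48%), or 0.296% ± 0.0832 (n = 6) without AML library 3. They took 0.0822% ± 0.00671 (n = 4) in whole marrow and 0.0167% ± 0.00307 (n = 4) in lineage-negative marrow. Against whole marrow, 9 of 10 members were called higher in AML, where 27.3% of all genes tested were called higher and 11.3% lower. With TMM scaling 7 of 10 were called higher, against 4.73% of all genes (16.04% were called lower on that scale). In 8 of 10 members every AML library lay above every whole marrow library, which held for 35.8% of all genes. In bulk RNA, a different share of cells that express these genes and a different amount of RNA per cell cannot be told apart.

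**Figure D1:**
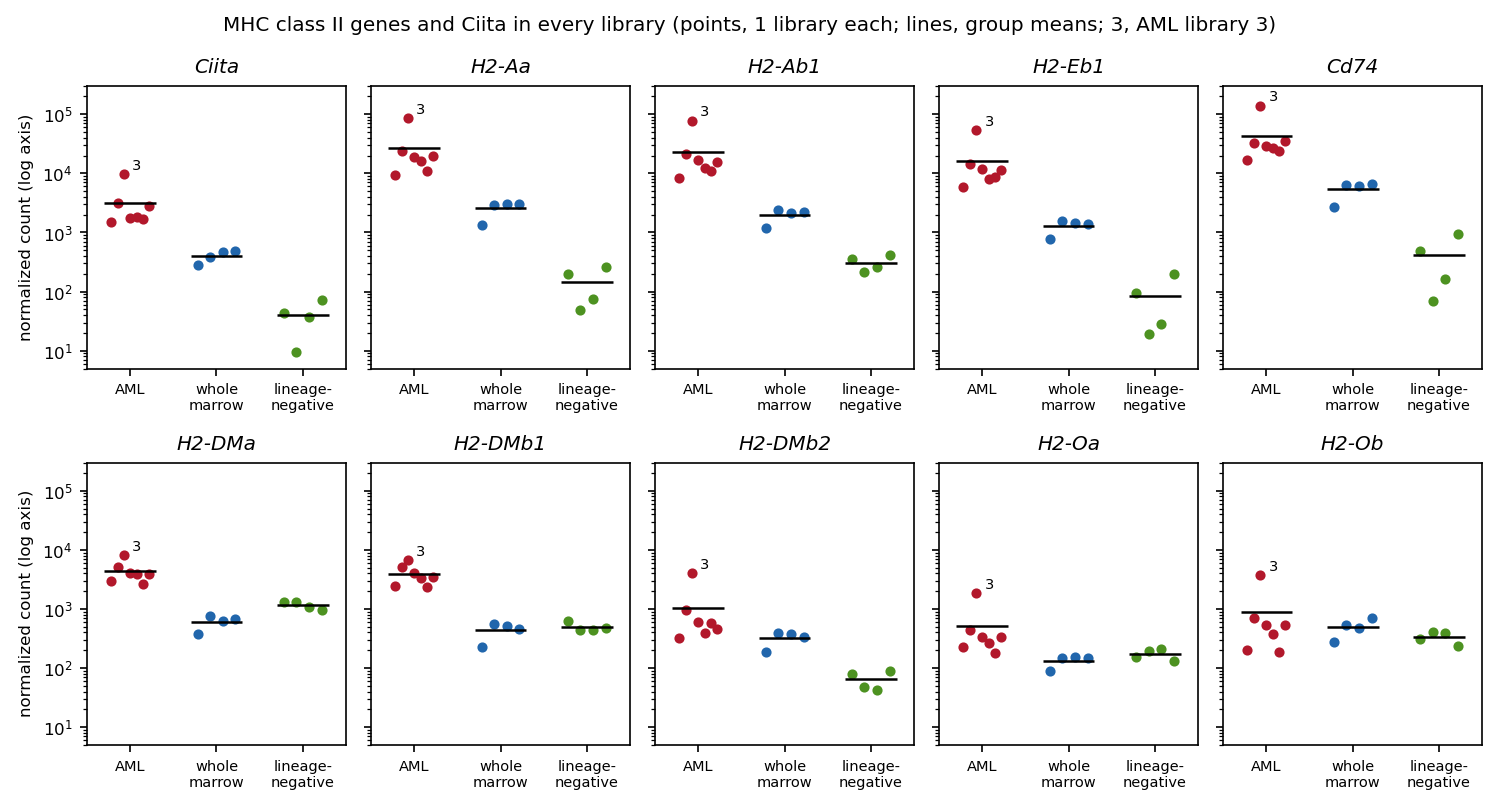
Normalized count (log axis) of each of the 10 genes in every library, in AML (red, n = 7), whole marrow (blue, n = 4) and lineage-negative marrow (green, n = 4). Lines are group means and the digit 3 marks AML library 3, which is the highest AML library in every panel. Ciita, the H2-A and H2-E chains and Cd74 separate the 3 groups. For H2-Oa lineage-negative marrow overlaps both other groups, and for H2-Ob all 3 groups overlap.

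Ciita, the transactivator on which class II transcription depends, was itself higher in AML. Its normalized counts in AML libraries 1 to 7 were 1505, 3124, 9598, 1761, 1816, 1678 and 2752. They were 277, 381, 472 and 486 in whole marrow and 43.6, 9.69, 37.0 and 71.8 in lineage-negative marrow. The 3 groups did not overlap: the lowest AML library was 3.10 times the highest whole marrow library and 20.96 times the highest lineage-negative library. The log2 difference was 2.68 ± 0.46 (SE, limma adjusted p = 8.18e-05) against whole marrow and 6.22 ± 0.46 (adjusted p = 2.12e-09) against lineage-negative marrow. Dexi, a gene on the opposite strand, overlaps 25888 bases of Ciita, and the strand used in counting is not stated. Its mean was 236 normalized counts in AML, 72.3 in whole marrow and 144 in lineage-negative marrow, so in lineage-negative marrow it exceeded the mean of Ciita (40.5 ± 25.5).

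H2-Aa and H2-Ab1 encode the alpha and beta chains of the class II molecule H2-A. H2-Aa read 9470, 24117, 85245, 19202, 15862, 11052 and 19591 in AML libraries 1 to 7, 1327, 2948, 2977 and 2991 in whole marrow, and 197, 49.4, 75.8 and 263 in lineage-negative marrow. H2-Ab1 read 8368, 21149, 77894, 17004, 12111, 10953 and 15842 in AML, 1204, 2381, 2133 and 2210 in whole marrow, and 357, 213, 259 and 409 in lineage-negative marrow. For both chains AML was above whole marrow and whole marrow above lineage-negative marrow, with no overlap. The log2 difference of AML against whole marrow was 3.04 ± 0.49 for H2-Aa (limma adjusted p = 4.56e-05) and 3.19 ± 0.41 for H2-Ab1 (adjusted p = 5.76e-06). Against lineage-negative marrow it was 7.39 ± 0.49 for H2-Aa (adjusted p = 5.68e-10) and 5.86 ± 0.41 for H2-Ab1 (adjusted p = 1.14e-09).

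H2-Eb1 encodes the beta chain of the other class II molecule, H2-E. Its AML values were 5948, 14308, 53387, 11633, 8060, 8568 and 11375, its whole marrow values 782, 1548, 1440.1 and 1416, and its lineage-negative values 93.5, 19.4, 28.2 and 200.4. It had the highest log2 difference of the 10 members in both AML comparisons with all libraries, 3.29 ± 0.54 against whole marrow (limma adjusted p = 5.36e-05) and 7.72 ± 0.54 against lineage-negative marrow (adjusted p = 9.91e-10). Without AML library 3 it stood at 2.93 against whole marrow, below H2-DMb1 at 3.01. H2-Ea, the gene of its alpha chain, is annotated as a polymorphic pseudogene and was not among the genes tested. It was at 0 in 4 of 7 AML libraries and at 1.08 to 3.70 in the others, at most 2.73 in whole marrow, and at 0 in 3 of 4 lineage-negative libraries, with 16.97 in the remaining library. So the alpha chain transcript was at or under the level of 3 reads in AML and whole marrow alike, which the beta chain transcript far exceeded in both. Whether H2-Ea is functional in these mice is not known here, as the strain is not given.

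Cd74, the invariant chain (chromosome 18, 60936920 to 60945724, plus strand), had the highest mean per kilobase of the 10 in AML. It read 16909, 32017, 139510, 28810, 27315, 23864 and 34649 in AML libraries 1 to 7, 2728, 6267, 6028 and 6504 in whole marrow, and 486, 70.5, 164 and 939 in lineage-negative marrow. The lowest AML value was 2.60 times the highest whole marrow value and 18.004 times the highest lineage-negative value. The log2 difference was 2.73 ± 0.56 against whole marrow (limma adjusted p = 0.00039) and 6.96 ± 0.56 against lineage-negative marrow (adjusted p = 6.41e-09).

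The peptide exchange factor H2-DM differed from the classical chains in part of its normal pattern. H2-DMa and H2-DMb1 were not called lower in lineage-negative than in whole marrow with either scaling, while H2-DMb2 was, as were the classical chains. H2-DMa, the alpha chain of H2-DM, read 2914, 5126, 8043, 4126, 3892, 2622 and 3944 in AML, 376, 763, 623 and 682.4 in whole marrow, and 1300.2, 1290, 1074 and 969.8 in lineage-negative marrow. With the deposited scaling the order was AML, then lineage-negative, then whole marrow, and no 2 groups overlapped. With TMM scaling the normal groups overlapped (851 to 1166 in lineage-negative and 787 to 934 in whole marrow). The log2 difference of AML was 2.80 ± 0.25 against whole marrow (limma adjusted p = 1.31e-07) and 1.84 ± 0.25 against lineage-negative marrow (adjusted p = 7.34e-06). Brd2, which encodes a bromodomain protein, lies on the opposite strand over 3094 bases of H2-DMa and had means of 5543, 2946 and 5989 normalized counts in AML, whole and lineage-negative marrow, so reads of the overlap may sit in either gene.

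H2-DMb1 and H2-DMb2 are paralogs that both encode an H2-DM beta chain. H2-DMb1 read 2427, 5106, 6742, 4112, 3351, 2379 and 3410.2 in AML, 229.9, 550.1, 509 and 452 in whole marrow, and 635, 439, 447 and 473 in lineage-negative marrow. H2-DMb2 read 321, 950.3, 4066, 599, 393, 573 and 459 in AML, 187, 385, 376 and 331 in whole marrow, and 79.9, 48.8, 43.1 and 89.9 in lineage-negative marrow. For H2-DMb1 AML stood above both normal groups, which overlapped each other. For H2-DMb2 the lowest AML library lay within the whole marrow range, and both stood above lineage-negative marrow. The log2 difference of AML against whole marrow was 3.16 ± 0.27 for H2-DMb1 (limma adjusted p = 7.62e-08). For H2-DMb2 it was 1.17 ± 0.48 (adjusted p = 0.0406), and it was not called with TMM scaling (0.47, adjusted p = 0.487) or without AML library 3 (0.74, below the size of 1). Against lineage-negative marrow it was 2.90 ± 0.27 for H2-DMb1 (adjusted p = 5.13e-08) and 3.45 ± 0.48 for H2-DMb2 (adjusted p = 8.13e-06). How reads shared by near-identical parts of the pair were assigned is not given in the sources used here. Their estimated reads were not whole numbers, with 256.115 and 207.884 in whole marrow library 1, where H2-Ob had 302. Some reads thus appear to have been counted in fractions, and the split between the pair is uncertain.

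H2-Oa and H2-Ob encode H2-O, the inhibitor of H2-DM, and of the members they had the smallest differences between AML and lineage-negative marrow. The antisense transcript BC051537 covers the whole of H2-Oa and had means of 10.3, 7.80 and 23.5 normalized counts in AML, whole and lineage-negative marrow. H2-Oa read 229.5, 446, 1841, 342, 268, 182 and 337 in AML, 88.0, 146, 151 and 147 in whole marrow, and 155, 194, 209.9 and 133 in lineage-negative marrow. Its log2 difference was 1.53 ± 0.42 against whole marrow (limma adjusted p = 0.00424) but 0.83 with TMM scaling (adjusted p = 0.145). Against lineage-negative marrow it was 1.14 ± 0.42 (adjusted p = 0.0339) with overlapping groups, and 0.76 without AML library 3, below the size of 1. H2-Ob read 202, 691, 3771, 529.8, 384, 186 and 534 in AML, 271, 533, 475 and 690.4 in whole marrow, and 309.5, 413, 392 and 232 in lineage-negative marrow. All 3 groups overlapped, and it was the member not called in any comparison. Its log2 difference against whole marrow was 0.16 ± 0.54 (adjusted p = 0.804), with the opposite sign under TMM scaling (−0.53) and without AML library 3 (−0.31).

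Values per kilobase were taken over the joined length of all annotated exons of each gene, so orders between genes depend on the annotation. Undivided, the AML mean of H2-Aa (26363) stood above that of H2-Ab1 (23332). Per kilobase, Cd74 led in AML with a mean of 25787 normalized counts per kb. H2-Ab1 (9086), H2-Eb1 (8324) and H2-Aa (6941) followed, and their ranges over the 7 libraries overlapped. H2-DMb1 (2339) and H2-DMa (1271) came next, followed by H2-DMb2 (602), H2-Oa (370.3), Ciita (333) and H2-Ob (167). AML library 3 weighs on these means: without it Cd74 was at 16236 per kb, H2-Ab1 at 5544, H2-Eb1 at 5135, H2-Aa at 4357, H2-DMb2 at 314 and H2-Ob at 78.3. Ciita (221) then stood next to H2-Oa (214), in the opposite order. In lineage-negative marrow the order was different: H2-DMa (336), H2-DMb1 (296) and Cd74 (247) per kb were the highest, H2-Oa (123) and H2-Ab1 (121) came next, and Ciita was lowest at 4.25 per kb. The normal progenitor fraction thus carried transcripts of H2-DMa and H2-DMb1 at levels per kb above those of H2-Aa (38.5) and H2-Eb1 (43.9).

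Between AML and lineage-negative marrow, 9 of 10 members were called higher, where 17.7% of all genes were called higher and 12.5% lower. In 8 of 10 the groups did not overlap, against 16.98% of all genes. The median log2 difference of the 10 members was 4.66, against 0.02 for all genes tested. Their differences fell into 3 tiers by size: H2-Eb1, H2-Aa, Cd74, Ciita and H2-Ab1 between 5.86 and 7.72, the H2-DM genes between 1.84 and 3.45, and H2-Oa and H2-Ob at 1.14 and 0.67. Against whole marrow the median of the members was 2.76, which is 2.09 above that of all genes. The 2 AML comparisons share the 7 AML libraries and are not independent.

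The normal populations differed from each other in 6 of the members. In lineage-negative marrow H2-Eb1 (log2 difference −4.43 ± 0.61), H2-Aa (−4.35 ± 0.55), Cd74 (−4.23 ± 0.63), Ciita (−3.54 ± 0.52), H2-Ab1 (−2.67 ± 0.47) and H2-DMb2 (−2.28 ± 0.54) were called lower than in whole marrow, with limma adjusted p between 2.36e-06 and 0.00118. The same 6 were called lower with TMM scaling. The background was 17.2% of genes called lower and 33.1% called higher with the deposited scaling, and 24.8% called lower and 10.96% called higher with TMM. The groups did not overlap in these 6, which held in this direction for 16.6% of all genes. H2-DMa went the other way by 0.96 ± 0.29 (adjusted p = 0.00674), just under the size of 1, and by 0.26 with TMM scaling. H2-DMb1 (0.25) and H2-Oa (0.38) changed sign with TMM scaling (−0.45 and −0.31), and H2-Ob was at −0.50, none of the 3 past the threshold.

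**Figure D2:**
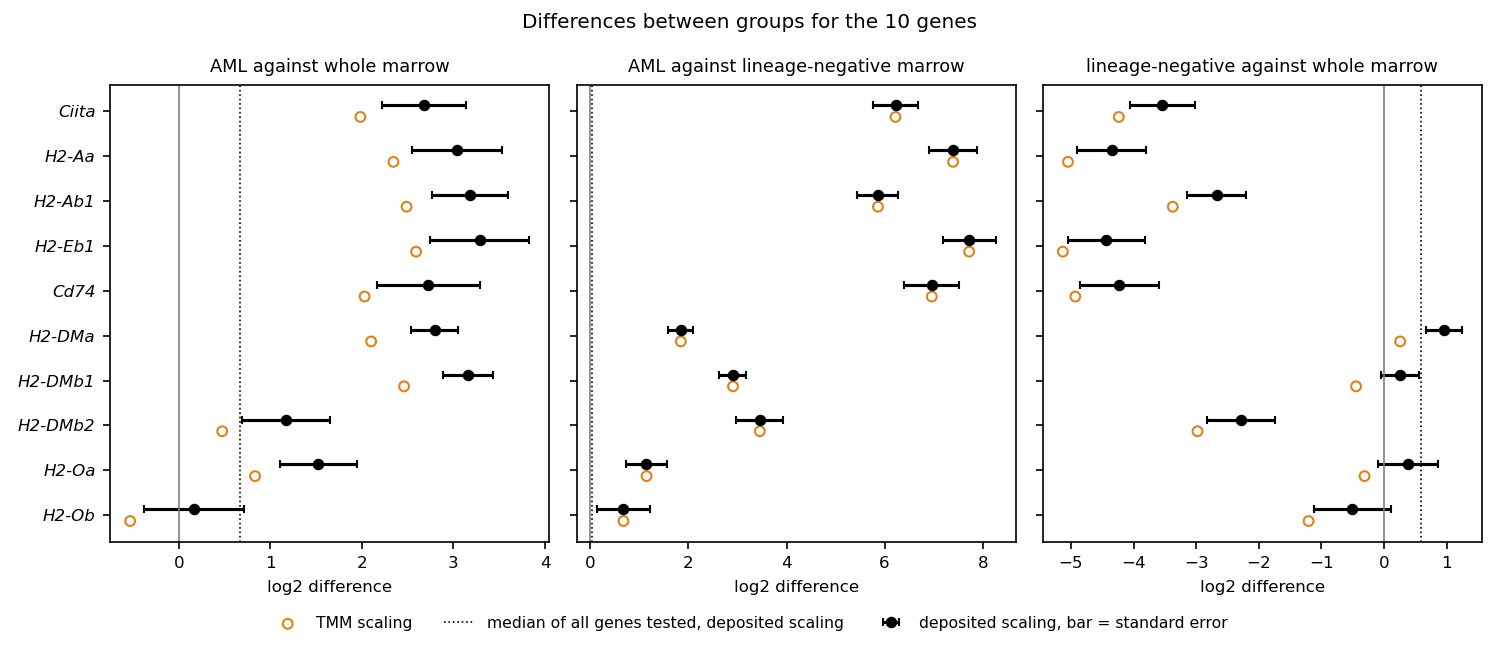
Log2 difference of each of the 10 genes in the 3 comparisons, with the deposited scaling (filled points, bars show the standard error) and with TMM scaling (open circles); the dotted line is the median of all genes tested. H2-Ob crosses 0 between the scalings in AML against whole marrow, and H2-DMb1 and H2-Oa do so in lineage-negative against whole marrow.

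Ratios between members within a library do not depend on its size factor, and they showed that the machinery differed in composition as well as in amount. There were 7 ratios in 3 comparisons, tested by exact two-sided permutation of log2 ratios with Benjamini-Hochberg adjustment over the 21 tests. The smallest p that the splits could give was 0.00303 in comparisons with AML and 0.0286 between the normal groups. Every ratio that passed between the normal groups stood at that floor, with an exact permutation adjusted p of 0.0429. At an adjusted p under 0.05, 14 of 21 tests passed.

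The balance of the 2 beta chain genes of H2-DM differed between the groups, as far as the uncertain split of shared reads between these paralogs allows. The ratio of H2-DMb1 to H2-DMb2 was 7.55, 5.37, 1.66, 6.85, 8.51, 4.15 and 7.41 in AML libraries 1 to 7, between 1.23 and 1.43 in whole marrow, and between 5.21 and 10.1 in lineage-negative marrow. AML exceeded whole marrow by 1.99 on the log2 scale (exact permutation p = 0.00303, adjusted p = 0.0127, no overlap), and lineage-negative marrow exceeded whole marrow by 2.54 (adjusted p = 0.0429). AML and lineage-negative marrow differed by −0.55 (adjusted p = 0.277). AML library 3 was nearest to whole marrow. The summed beta chains kept a more even balance with the alpha chain: the ratio of H2-DMa to both H2-DMb genes had a median of 0.888 in AML and 0.844 in whole marrow (difference 0.16, adjusted p = 0.204), but 2.00 in lineage-negative marrow (AML lower by 1.17 on the log2 scale, exact permutation adjusted p = 0.0127).

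Transcripts of the inhibitor were low relative to those of its target in AML, though neither H2-O gene was called lower in AML in either comparison. These are ratios of RNA counts not divided by gene length, and protein was not measured. The ratio of H2-O (H2-Oa plus H2-Ob) to H2-DM (H2-DMa, H2-DMb1 and H2-DMb2) was 0.0764, 0.102, 0.298, 0.0987, 0.0855, 0.0663 and 0.112 in AML libraries 1 to 7. It was between 0.400 and 0.572 in whole marrow and between 0.231 and 0.385 in lineage-negative marrow. AML was below whole marrow by 2.11 on the log2 scale (exact permutation p = 0.00303, adjusted p = 0.0127, no overlap). It was below lineage-negative marrow by 1.47 (adjusted p = 0.0273), where only AML library 3 reached into the normal range, and the adjusted p was 0.0513 without AML libraries 5 and 6. In 6 of 7 AML libraries the ratio was at most 0.112, under the lowest value of either normal group.

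**Figure D3:**
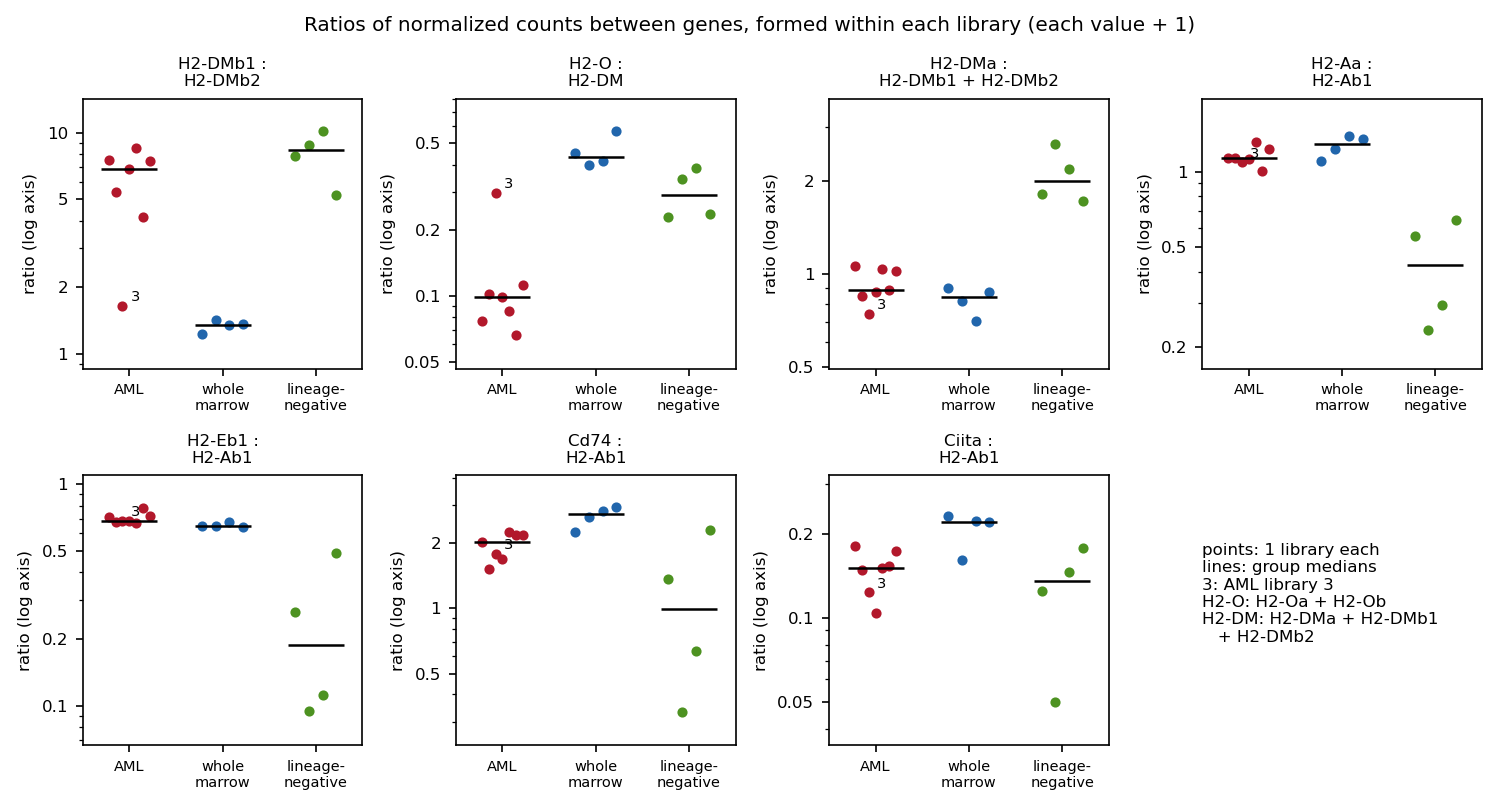
Ratios of normalized counts formed within each library (log axes), with group medians as lines and AML library 3 marked. In AML the H2-DMb1 to H2-DMb2 ratio lies above whole marrow and the H2-O to H2-DM ratio below it, and AML library 3 is the AML point nearest to whole marrow in both.

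The classical chains kept similar proportions in AML and whole marrow. The ratio of H2-Aa to H2-Ab1 had a median of 1.13 in AML (range 1.01 to 1.31) and 1.30 in whole marrow (difference −0.14, exact permutation adjusted p = 0.127). H2-Eb1 to H2-Ab1 was 0.685 and 0.650 (difference 0.10, adjusted p = 0.0429, groups overlapping). Cd74 stood lower relative to H2-Ab1 in AML than in whole marrow, at medians of 2.02 and 2.73 (difference −0.46, adjusted p = 0.0212, no overlap). Ciita also stood lower relative to H2-Ab1, at 0.150 and 0.221 (difference −0.51, adjusted p = 0.0429, groups overlapping). Neither the H2-Eb1 nor the Ciita difference passed when some single libraries were left out. In lineage-negative marrow H2-Aa was below H2-Ab1, unlike in the other groups, and H2-Eb1 was below it by more. The medians were 0.424 and 0.188 (AML higher by 1.53 and 1.86 on the log2 scale, both exact permutation adjusted p = 0.0127). The ratio of Ciita to H2-Ab1 differed between AML and lineage-negative marrow by 0.37 (adjusted p = 0.3).

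Among the 7 AML libraries, library 3 had the highest value of all 10 members. Over all genes tested, 14.9% were highest in that library. Its value was 4.86 to 8.25 times the median of the other 6 for 8 members, and 2.05 and 1.99 times for H2-DMa and H2-DMb1, whose spread was correspondingly smaller (SD of log2 values 0.53 and 0.55, against 0.93 to 1.45 for the others). Library 2 ranked second for 9 members, with library 7 second for Cd74. Library 1 was lowest for 6 members and library 6 for 4. Without library 3 the highest AML value was 1.96 to 3.71 times the lowest in each gene, and the mean of H2-Ab1 fell from 23332 ± 24430 to 14238 ± 4642 normalized counts. Even so, the differences against whole marrow without library 3 were 2.83 for H2-Ab1, 2.93 for H2-Eb1 and 2.36 for Ciita on the log2 scale. H2-DMb2 against whole marrow and H2-Oa against lineage-negative marrow lost their calls without it, and of the other members none did. Of the 21 ratio tests, 14 passed without it as well.

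**Figure D4:**
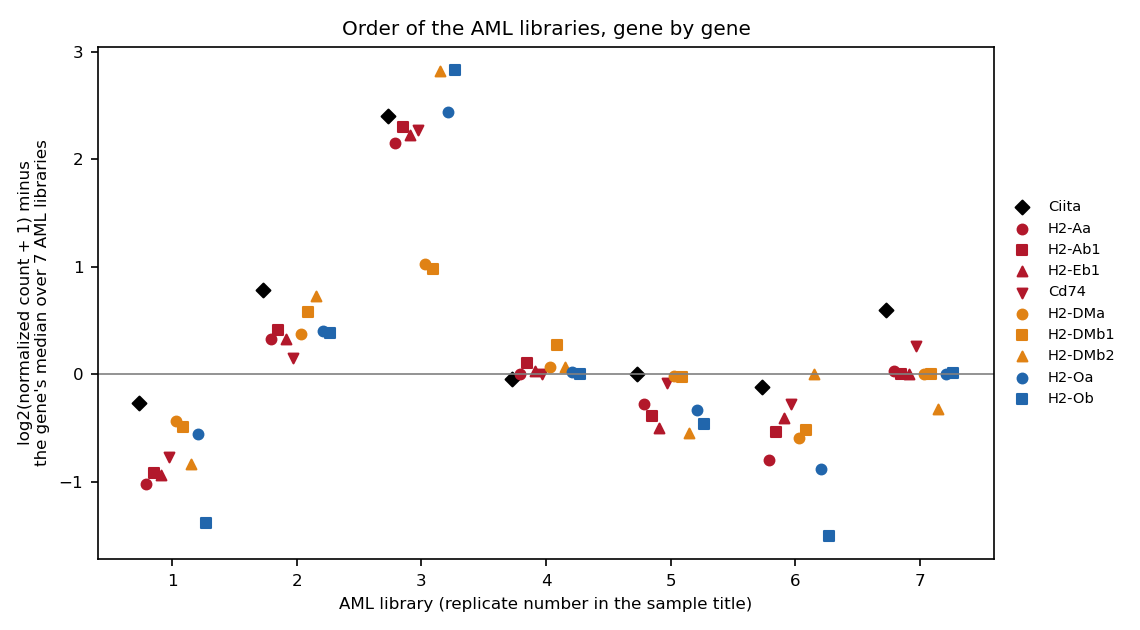
Log2(normalized count + 1) of each gene in the 7 AML libraries, relative to the median of that gene over the 7. Library 3 is above the others for all 10 genes, with H2-DMa and H2-DMb1 at the bottom of its column, and libraries 1 and 6 hold the lowest values.

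Ciita and its targets ranked the AML libraries in much the same way. Over the 7 libraries, Pearson's r between log2 values of Ciita and each other member was between 0.853 (H2-DMb1) and 0.969 (H2-Eb1), with an exact permutation p adjusted over 14 relations under 0.05 in 9 of 9. Spearman's rho was between 0.714 (H2-DMb2) and 0.964 (H2-Aa), with an adjusted p under 0.05 in 7 of 9. The relation leans on libraries 2 and 3: without them, r was between 0.177 (H2-DMb2) and 0.833 (Cd74). The libraries share a scaling and a tissue, so these values describe a shared order.

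Markers of cells that normally carry class II molecules did not all move with these genes. The 12 B cell markers summed to 851, 5556, 9759, 3483, 1147, 1372 and 2164 normalized counts in AML libraries 1 to 7, against 5414 to 11312 in whole marrow and 370.2 to 711 in lineage-negative marrow. Of the 12, 11 were called lower than in whole marrow and 10 higher than in lineage-negative marrow, against 11.3% and 17.7% of all genes. So class II genes were higher in AML than in whole marrow while 11 of 12 B cell markers were lower, and no B cell marker was at 0 in any AML library. The markers that follow were named after their values were seen. In AML library 3, Ms4a1 (1417), which encodes a B cell surface protein, was above its whole marrow maximum (1134). Cd79a (1230) and Cd79b (1675) in that library lay within their whole marrow ranges, and Pax5 (638) and Ebf1 (152) lay below theirs. The precursor B cell genes Vpreb1, Vpreb3 and Igll1 were below their whole marrow minima in every AML library. Their AML maxima were 65.7, 37.8 and 217, against whole marrow minima of 116, 253 and 223.

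The 12 conventional dendritic cell markers summed to 5140, 9087, 24905, 7890, 9010, 2771 and 10819 in AML, 805 to 1377 in whole marrow and 2526 to 2949 in lineage-negative marrow. This list holds Flt3, the gene altered in the AML mice. Of the 11 tested, 10 were called higher than in whole marrow (8 with TMM scaling) and 9 higher than in lineage-negative marrow. Over all genes 27.3% were called higher and 11.3% lower than in whole marrow (4.73% and 16.04% with TMM scaling). Against lineage-negative marrow 17.7% were called higher. These shares also apply to the monocyte, plasmacytoid and macrophage lists below. Batf3, a transcription factor of cross-presenting dendritic cells, had a log2 difference of 4.38 ± 0.45 against whole marrow (limma adjusted p = 5.99e-07), and the lectin gene Clec10a of 3.21 ± 0.33 (adjusted p = 5.99e-07). Cd207 and Htr7 were at 0 in all lineage-negative libraries. All 12 of these markers were highest in AML library 3, as were 9 of 12 B cell markers and 8 of 10 erythroid markers, but 1 of 10 monocyte and 0 of 10 plasmacytoid dendritic cell markers. Of the monocyte markers, 9 of 10 were called higher in AML than in whole marrow and 10 of 10 higher than in lineage-negative marrow, and of the plasmacytoid dendritic cell markers 4 and 9 of 10. With TMM scaling 7 monocyte and 0 plasmacytoid markers were called higher than in whole marrow. The plasmacytoid markers summed to 2858 to 11920 in AML and 2224 to 4039 in whole marrow. Macrophage markers summed to 3987 to 9541 in AML and 2347 to 5731 in whole marrow, with 2 of 10 called higher and 3 lower (0 and 3 with TMM scaling). The part of these cell types in the class II levels was not tested.

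Set against H2-Ab1 over the 7 AML libraries, the mean log2 level of the B cell markers gave r = 0.77 and rho = 0.96 (exact permutation p = 0.00694 and 0.00278, adjusted p = 0.0122 and 0.0194 over 14 relations). Without libraries 1 and 6, r was 0.65. The conventional dendritic cell markers gave r = 0.94 and rho = 0.79 (exact p = 0.00794 and 0.0480, adjusted p = 0.0123 and 0.0672), and r = 0.80 without libraries 3 and 6. The other 3 lists did not pass the threshold: r was −0.03 for plasmacytoid dendritic cell, −0.24 for monocyte and 0.32 for macrophage markers (exact permutation adjusted p = 0.957, 0.740 and 0.56), and rho 0.36, 0.04 and 0.29 (adjusted p = 0.519, 0.963 and 0.599). For the plasmacytoid list r was 0.95 without libraries 3 and 6.

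**Figure D5:**
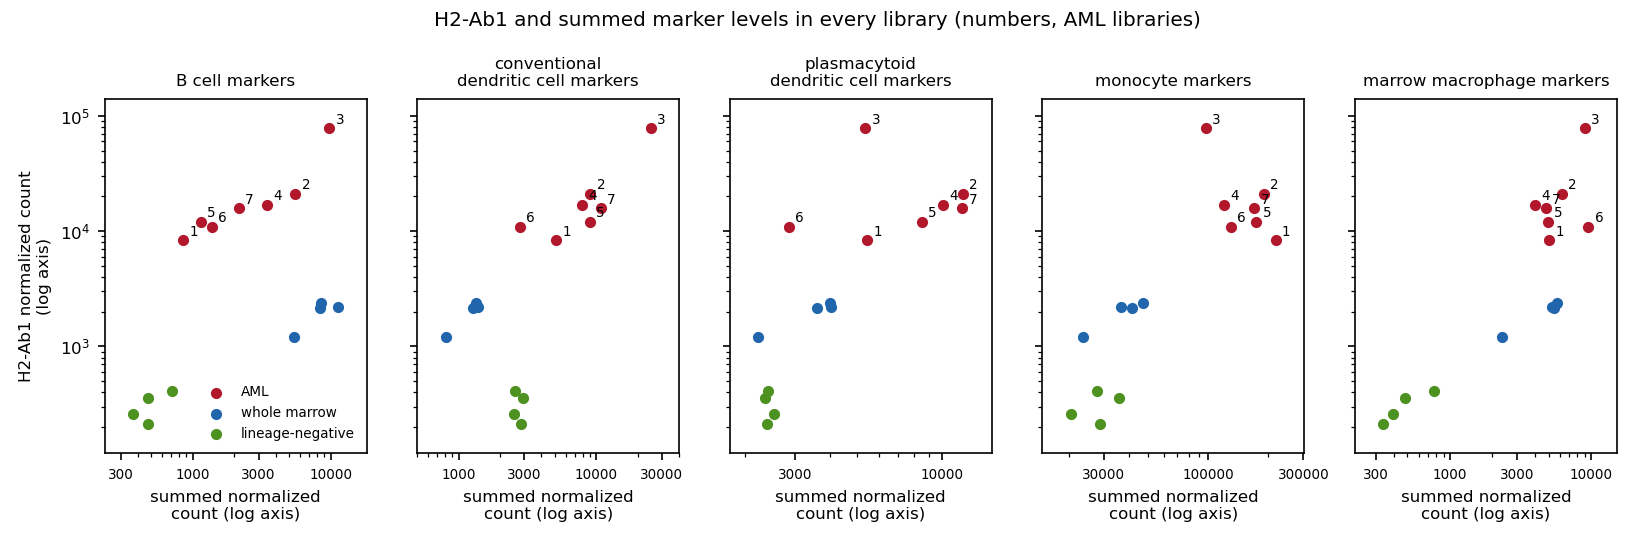
H2-Ab1 normalized count against the summed normalized counts of 5 marker lists in every library (log axes; red AML with library numbers, blue whole marrow, green lineage-negative marrow). At B cell marker sums within or below the whole marrow range, all 7 AML libraries have more H2-Ab1 than any whole marrow library.

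Genes of the DNA-bound complex that recruits Ciita were called higher in AML than in whole marrow at about the share of all genes. Of 12 genes of the RFX, NF-Y and CREB proteins and their coactivators, 3 were called higher, against 27.3% of all genes tested. Among them were Ep300 (log2 difference 1.14 ± 0.27), a histone acetyltransferase, and Rfx5 (1.08 ± 0.19), the large RFX subunit. None of the 3 was called with TMM scaling, against 4.73% of all genes called higher. Against lineage-negative marrow only Kat2b, another acetyltransferase, was called (1.03 ± 0.21, limma adjusted p = 0.0004), where 17.7% of all genes were called higher and 12.5% lower. In lineage-negative marrow 5 of 12 were called higher than in whole marrow, among them Rfx5 (1.64 ± 0.22), Nfya (1.31 ± 0.25) and Smarca4 (1.08 ± 0.22), but with TMM scaling none was called higher and 1 lower. Of all genes, 33.1% were called higher in that comparison with the deposited scaling. With TMM scaling 10.96% were called higher and 24.8% lower. The median log2 difference of the 12 in AML against whole marrow was 0.81, close to the 0.67 of all genes tested.

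Factors that act on the Ciita gene moved in both directions. Of 11, 7 were called higher and 2 lower when AML was set against whole marrow, where 27.3% and 11.3% of all genes were. With TMM scaling 2 were called higher and 3 lower, against 4.73% and 16.04% of all genes. The B cell factors Ebf1 (−3.29 ± 0.46) and Pax5 (−3.01 ± 0.90) were lower, while Irf8 (2.33 ± 0.26), a factor of monocytes and dendritic cells, and Prdm1 (1.97 ± 0.32), a repressor of Ciita, were higher, and these 4 were called with both scalings. Against lineage-negative marrow 8 of 11 were called higher, against 17.7% of all genes. Irf4 (4.40 ± 0.41), Pax5 (4.26 ± 0.90), Prdm1 (3.00 ± 0.32) and Ebf1 (2.72 ± 0.46) led. Lineage-negative marrow was lower than whole marrow in Pax5 (−7.27 ± 1.01), Ebf1 (−6.01 ± 0.52), Irf4 (−3.76 ± 0.46) and Bach2 (−1.99 ± 0.58). They were among 5 called lower and 2 called higher (7 and 1 with TMM scaling). The shares of all genes were 17.2% and 33.1% (24.8% and 10.96% with TMM scaling).

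Interferon gamma is the classical inducer of Ciita outside B cells and dendritic cells. Of 10 genes of its pathway 6 were called higher in AML than in whole marrow, against 27.3% of all genes. The 6 included the receptor gene Ifngr1 (1.70 ± 0.21), Irf1 (1.48 ± 0.26) and the feedback inhibitor Socs1 (1.23 ± 0.39). With TMM scaling 1 of 10 was called higher, against 4.73% of all genes. Against lineage-negative marrow 5 of 10 were called higher (17.7% of all genes), among them Socs3 (2.22 ± 0.48), Ifngr2 (1.95 ± 0.20) and Irf1 (1.72 ± 0.26). Ifng itself, named after its values were seen, had means of 32.1, 9.11 and 3.70 normalized counts in AML, whole and lineage-negative marrow and was not called in either AML comparison (limma adjusted p = 0.4 and 0.063).

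Most genes of a list that prepares peptides and degrades the invariant chain were called higher in AML with the deposited scaling. Of 12 endosomal genes, 9 were called higher in AML than in whole marrow (5 with TMM scaling) and 10 higher than in lineage-negative marrow. The shares of all genes called higher were 27.3% (4.73% with TMM scaling) and 17.7%. Ifi30, a thiol reductase for antigens, had a log2 difference of 2.66 ± 0.24 against whole marrow (limma adjusted p = 1.1e-07). Ctss, the cathepsin that makes the last cuts in Cd74, had 2.58 ± 0.24 (adjusted p = 1.7e-07). The cathepsin inhibitor gene Cst3 (2.57 ± 0.25) and Ctsz (1.90 ± 0.20) followed. Against lineage-negative marrow the leading genes were Ctss (4.32 ± 0.24), Ifi30 (3.46 ± 0.24), Lgmn (3.15 ± 0.25) and Ctsh (2.99 ± 0.23). In lineage-negative marrow 4 of 12 were called lower than in whole marrow: Ctss (−1.75 ± 0.27), Lgmn (−1.68 ± 0.28), Ctsb (−1.24 ± 0.24) and Ctsh (−1.16 ± 0.26). With TMM scaling 7 were. Over all genes 17.2% were called lower in that comparison, and 24.8% with TMM scaling. The median log2 difference of the list was 1.50 in AML against whole marrow and 1.95 against lineage-negative marrow.

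Genes of surface turnover and costimulation were split. Marchf8, one of the ubiquitin ligases that remove class II molecules from the surface, was lower in AML than in whole marrow (−2.87 ± 0.27, limma adjusted p = 2.3e-07). Its relative Marchf1 was higher than in lineage-negative marrow (4.39 ± 0.25). Of 11 genes tested, 6 were called higher against whole marrow (2 with TMM scaling), where 27.3% of all genes were (4.73% with TMM). The 6 included Lag3 (2.58 ± 0.48), which encodes a class II receptor, and the costimulatory genes Cd40 (1.88 ± 0.37) and Cd86 (1.62 ± 0.33). Lag3 and Cd40 were called with TMM scaling as well, and Cd86 was not (0.92). Against lineage-negative marrow 8 of 11 were called higher and 2 lower, where 17.7% and 12.5% of all genes were. The higher genes were led by Cd83 (6.12 ± 0.61), which slows class II turnover, and Cd40 (5.06 ± 0.37), with Cd4 at 3.96 ± 0.42. The 2 called lower, named after their values were seen, were Marchf8 (−1.34 ± 0.27) and the tetraspanin gene Cd81 (−1.02 ± 0.31). In lineage-negative marrow 8 were called lower than in whole marrow, against 17.2% of all genes. They were led by Cd83 (−4.53 ± 0.69), Cd40 (−3.18 ± 0.41), Marchf1 (−2.79 ± 0.28) and Cd80 (−2.74 ± 0.46).

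The neighbours of the class II genes on chromosome 17, several of which serve MHC class I, did not follow them in full. Of 10 tested, 7 were called higher in AML than in whole marrow, against 27.3% of all genes. Tap1 (2.25 ± 0.22), Psmb9 (2.11 ± 0.22), Psmb8 (2.08 ± 0.21) and Notch4 (1.83 ± 0.45) led. With TMM scaling those 4 were called higher and Btnl2 lower, against 4.73% and 16.04% of all genes. Against lineage-negative marrow 5 were called higher, against 17.7% of all genes. Their differences were smaller than those of the classical chains: Btnl2 2.00 ± 0.43, Notch4 1.96 ± 0.45, Tapbp 1.32 ± 0.21 and Tap1 1.24 ± 0.22. In lineage-negative marrow Ring1 (1.44 ± 0.24), Rxrb (1.32 ± 0.25) and Tap2 (1.27 ± 0.23) were called higher than in whole marrow, among 6 of the 10. None was called higher with TMM scaling. Over all genes 33.1% were called higher in that comparison, and 10.96% with TMM scaling. Btnl2 was called lower with both scalings (−2.53 ± 0.49 with the deposited). H2-Eb2, a further class II beta chain gene beside H2-Eb1, had a log2 difference of 0.16 between AML and whole marrow, of 3.96 between AML and lineage-negative marrow and of −3.80 between lineage-negative and whole marrow; the last 2 were called. It read 24.5 to 688 in AML, highest in library 3.

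Genes with the pattern most like the classical chains were sought among 11281 genes whose mean reached 50 normalized counts, by Pearson's r with the mean centred log2 level of H2-Aa, H2-Ab1, H2-Eb1 and Cd74. Over all 15 libraries the 5 most alike were Kynu (0.986), Zc3h12d (0.984), Crybg1 (0.983), Gpr137b-ps (0.982) and Cd40 (0.982). Kynu encodes an enzyme of tryptophan breakdown, and its means were 249 ± 93.8 normalized counts in AML, 53.0 in whole marrow and 7.05 in lineage-negative marrow. Over the 7 AML libraries alone they were Trim7 (0.982), Gpm6b (0.977), Eno3 (0.975), Batf3 (0.975) and Ccr7 (0.975). Both dendritic cell genes in this second list, Batf3 and the chemokine receptor gene Ccr7, had r of 0.94 and 0.87 without AML library 3. These are ranks within these libraries, which share their scaling, and no p-value belongs to them.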

How the data were processed

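Bulk total RNA (TRIzol, TruSeq Stranded Total RNA, per the labels' protocols) was sequenced in 15 libraries. The deposited signal values are read counts per gene that the authors divided by DESeq2 size factors of the poscounts type, per the name of the deposited table. The submitters' processing notes name STAR, Partek, DESeq2 and mm10, without versions or roles. Starts in the table differ from GRCm38 for most genes (861 of 38066 are the same), so exonic lengths (GENCODE) and promoters (RefSeq) were matched by identifier or symbol. The strand used in counting is not given in the sources used here.

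Groups were taken from the sample titles. Genes with a normalized count of at least 10 in at least 4 samples were tested with limma 3.58.1 in R 4.3.3 on log2(value + 1), in a single fit of 3 group means with a mean-variance trend, two-sided, with Benjamini-Hochberg adjustment. This scale understates changes of low genes. Low values were whole multiples of the value of 1 read in 82.2% to 87.1% of cases (tolerance 0.02), which gave the depth estimate but did not recover whole reads, so count tests were not run. Floors of 3 reads cover counting error only. Scripts were tested on simulated data. Ratios and relations used exact permutation tests in scipy 1.17.1 (330 or 70 splits, 5040 orders). Alternatives were other pseudocounts, filters and scalings, 2-group fits, array weights, a replicate block and leaving out libraries.

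The members, gene lists and tests were chosen with earlier results of these data known. From each list the text names up to 4 called genes per comparison, those with the largest absolute log2 difference; some are not reported here. Same-numbered samples of different groups were correlated above 0.1 in 2 of 12 pairs, so the numbers were not treated as pairs. No 2 libraries were identical (highest correlation 0.981).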

Additional observations from a re-analysis of the deposited data

Results flagged for a closer look

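Within groups of 4 to 10 libraries, a library was singled out where its gap to the nearest other library exceeded Dixon's 95% limit as a share of the range. Of 30 groups (10 genes in 3 groups), 11 had such a library, where chance gives about 1 in 20. In 8 of them it was AML library 3, as the highest of 7: H2-Aa 85245, H2-Ab1 77894, H2-Eb1 53387, Cd74 139510, H2-DMb2 4066, H2-Oa 1841, H2-Ob 3771 and Ciita 9598 normalized counts. H2-DMa and H2-DMb1 were also highest in that library but within the limit. In the other 3 it was whole marrow library 1, as the lowest of 4: H2-Aa 1327, Cd74 2728 and H2-Oa 88.0 normalized counts. That library also had the lowest total of normalized counts (1.02e+07, against 1.79e+07 to 1.93e+07 in the rest of whole marrow). As a share of the library, H2-Oa was highest there (0.000861%, against 0.000755% to 0.000840%), while H2-Aa and Cd74 stayed lowest. These flags therefore depend on the scaling of that library. The genes share these libraries, so the flags are not independent.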

How the results depend on the processing

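Of 590 recomputed differences of the members, 558 kept their direction and their side of the threshold, 19 lost the call, 3 gained it and 10 changed direction. The reversals were of differences that were not called: H2-Ob in AML against whole marrow (0.16) was −0.53 with TMM, −0.58 with quantile scaling, −0.31 to 0.41 when each AML library was left out and −0.10 to 0.35 when each whole marrow library was. In lineage-negative against whole marrow, H2-DMb1 (0.25) was −0.45, −0.51 and, with array weights, −0.10, and −0.028 to 0.39 when each library was left out. H2-Oa there was −0.31 with TMM and −0.30 with quantile scaling. The cause of these shifts was not tested. The ratio of Ciita to H2-Ab1 in AML against lineage-negative marrow (0.37) was −0.027 to 0.58 when each library was left out. The rank correlation of monocyte markers with H2-Ab1 (0.04) was −0.071 with TMM and −0.31 to 0.37 when each AML library was left out.

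Called members of AML against whole marrow were 9, and 7 to 9 in the alternatives: H2-DMb2 lost its call with TMM, quantile scaling, array weights, all genes and 2-group fits, and without AML library 2 or 3 or whole marrow library 1, 3 or 4, and H2-Oa with TMM and quantile scaling. H2-Oa in AML against lineage-negative marrow lost its call with all genes and 2-group fits, and without AML library 2 or 3 or lineage-negative library 1, 2 or 4. H2-DMa in lineage-negative against whole marrow (0.96) passed the size of 1 without whole marrow library 2 or 4 or lineage-negative library 4. With the replicate block the counts stayed at 9, 9 and 6, and it changed no member's call. Ratios past the threshold were 14, and 7 to 17 when each library was left out: without a whole marrow library (7 or 8) fewer splits exist. In AML against whole marrow, H2-Eb1 to H2-Ab1 did not pass without AML library 1 or 7 or any whole marrow library. Ciita to H2-Ab1 there did not pass without whole marrow library 1, 3 or 4, or without AML libraries 5 and 6. Relations past the threshold by rank correlation were 8 of 14, 10 with TMM scaling and 0 to 10 with 6 AML libraries. Without AML libraries 5 and 6, an alternative chosen after seeing the data, 9 and 9 members were called and 12 ratios passed. Whole marrow had the lowest depth but also the fewest genes at 0 (7.12% to 15.7%), and the effect of depth on its low genes was not tested.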
